A study of Mus musculus with 17 samples.

Results

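Neutrophils are made in bone marrow, and their first granules, the azurophil or primary granules, are filled at the promyelocyte stage. Genes for azurophil granule proteins are transcribed during that short stage and are shut down before the cell matures, so their mRNA marks neutrophil precursors and not the mature neutrophils of blood, which carry the proteins without much of the mRNA. The 7 genes described here belong to that stage. Mpo encodes myeloperoxidase, the enzyme that makes hypochlorous acid. Elane, Prtn3 and Ctsg encode neutrophil elastase, proteinase 3 and cathepsin G, serine proteases stored in the same granules. Ms4a3 encodes a membrane protein of granulocyte and monocyte progenitors. Gfi1 and Cebpe encode transcription factors, of which GFI1 represses the monocyte programme and C/EBPε drives the later, specific granule stage.

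The members were taken by gene symbol from a table of 35285 genes, and 7 of the 7 symbols were found, each once. Their levels were read in all 17 libraries of cochlear RNA, 1 library per mouse, from male wild-type C57BL/6J mice that were 8 weeks old when obtained. The control group (n = 3) received saline intraperitoneally and no noise. The NE group (n = 7) spent 2 h in noise between 8 and 16 kHz, set to 100 dB, which the labels call broadband and the study's methods call octave-band. The brimonidine group (n = 7) had that exposure and 3 intraperitoneal injections of 1 mg/kg brimonidine, an agonist of α2-adrenergic receptors, on the day before, the day of and the day after the noise. The labels place the injections before the noise only. Cochleae were collected on the second day after exposure. The study's methods place hearing tests, done under xylazine and ketamine, on that day in each group before the mice were killed. The study did not sequence mice given brimonidine without noise, so the groups carry the drug only on top of the exposure. The study's methods state no injection for the NE group, so in comparisons with it injection cannot be told apart from the drug or the noise. The study's methods give 2 sources for the sequenced RNA, the cochleae in the section on sequencing and tissue of the basilar membrane in the section on qPCR, which says that part of its RNA was sequenced. How far surrounding bone and marrow had been removed is not stated. The label "interstitial cells" is not explained.

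Depth lay between 14457733 and 18288854 counted fragments per library. Of 15 cochlear genes, among them Coch and Gjb2, 15 were listed above 0, and their summed level was 560 to 1391 FPKM in the control group, 602 to 901 in the NE group and 690 to 934 in the brimonidine group. Control 2 stood apart from the other 16 libraries, with a median correlation with them of 0.831. Of 10 genes of cerebellum and hindbrain, 10 were listed above 0, and they summed to between 291 and 731 FPKM in the control group, highest in control 2, against 28.6 to 37.1 in the NE group and 27.5 to 101 in the brimonidine group. All 3 control libraries therefore differed from the exposed ones in a tissue signal that is not cochlear, and its part in the differences from control below was not tested. Differences of the members from control, and of the gene lists between NE and control, are given with and without control 2.

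Elane and Prtn3 are neighbours on chromosome 10, where the RefSeq starts of the genes lie 6645 bases apart. The bases before the starts are shown for the 4 granule enzymes, read from RefSeq on GRCm38.p6, 5′ to 3′ on the strand of the gene. Whether these sequences bear on the levels of the members was not tested. Of the 7 members, 6 had a promoter entry, and Cebpe had none. Capitals mark AGGAAGT, a sequence of the kind that ETS factors such as PU.1 bind, and CAACGG, of the kind that MYB binds. The excerpts are chr10:79879517-79879626 (+) for Prtn3, chr10:79886162-79886271 (+) for Elane, chr11:87793534-87793609 (+) for Mpo and chr14:56102715-56102824 (-) for Ctsg.
Prtn3: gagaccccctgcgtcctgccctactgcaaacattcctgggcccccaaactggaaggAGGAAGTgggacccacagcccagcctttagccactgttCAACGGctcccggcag
Elane: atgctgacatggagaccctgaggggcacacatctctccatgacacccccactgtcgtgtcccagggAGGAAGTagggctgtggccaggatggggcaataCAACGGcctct
Mpo: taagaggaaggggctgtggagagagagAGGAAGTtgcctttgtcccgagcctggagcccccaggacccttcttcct
Ctsg: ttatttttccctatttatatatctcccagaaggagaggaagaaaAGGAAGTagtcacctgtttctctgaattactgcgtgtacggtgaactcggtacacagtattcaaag

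In Elane and Prtn3 the motifs stand in the same order and at nearly the same place. AGGAAGT began 84 bases before the start of Elane and 94 before that of Prtn3, and CAACGG followed 33 bases later in Elane and 38 bases later in Prtn3. In Mpo and Ctsg, AGGAAGT lay further out, 223 and 206 bases before the start, with no CAACGG in the window. Windows of 300 bases, from 250 before to 50 after a start, were searched on both strands for 4 motifs that do not overlap one another. AGGAAGT was in 4 of the 7 member windows (Gfi1 has 2 starts) and in 9.35% of all 32851 windows, and CAACGG in 2 of 7 and 5.12%. TTGCNNAA, a C/EBP type, was in 2 of 7, those of 1 Gfi1 start and of Ms4a3, and in 10.8% of all windows, and TGTGGT, a RUNX type, was in 1 of 7, that of Ctsg, and in 16.8%. The motifs were chosen with these sequences in view, and a match describes letters, not a bound site. GENCODE M21, whose gene models fit the deposited values, begins Elane, Prtn3 and Mpo further upstream than RefSeq does. Thus 25, 13 and 29 of the bases shown for Elane, Prtn3 and Mpo are exon there. The 25 bases of Elane, which M21 begins at base 79886247, include its marked CAACGG, which is thus not upstream of the gene in that model. For the marked motifs of Prtn3 this was not checked.

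All 7 members were expressed in every library. Levels are in FPKM, fragments counted on a gene divided by its exon length in kilobases and scaled to a fixed library total, so they can be compared between genes. Elane was the highest member, at 1098 ± 254 FPKM (SD, n = 17), and in the 14 exposed libraries it ranked between 23 and 33 among all genes. Prtn3 followed at 781 ± 205 FPKM, Ctsg at 509 ± 140 and Mpo at 369 ± 89.8. Ms4a3 reached 144 ± 39.7 FPKM and Cebpe 118 ± 24.5, and Gfi1 was lowest at 21.2 ± 4.62. The order held within nearly all libraries. Elane exceeded Prtn3, Prtn3 exceeded Ctsg, Mpo exceeded Ms4a3 and Cebpe exceeded Gfi1 in 17 of 17 libraries. Ctsg exceeded Mpo, and Ms4a3 exceeded Cebpe, in 16 of 17. The exception was control 2 in both cases, and for each of these pairs the ranges over 17 libraries overlapped. Together the 7 genes took between 0.416% and 0.677% of all fragments in the exposed libraries, and 0.106% (95% Wilson interval 0.105% to 0.108%, counting error only) in control 2.

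The place of Prtn3 below Elane depends on the gene length used. The authors' FPKM divides by all exons of a gene merged, which for Prtn3 is 1732 bases against 1025 for its longest coding transcript in GENCODE M21, while for Elane both are 984 bases. Per kilobase of the coding transcript, Prtn3 was above Elane in 16 of 17 libraries, with a median ratio of 1.19. Ms4a3 has a similar gap, 1884 against 1010 bases, and Mpo a smaller one, 3424 against 2750. Differences between groups for 1 gene are not touched by its length. Of all 50-base stretches in the transcripts of Elane, Ctsg, Ms4a3 and Cebpe, 0% were found in transcripts of other genes. The share was 9.46% in Mpo, in part from its antisense gene Gm11505, 6.45% in Prtn3, from the oppositely oriented Plppr3, and 1.05% in Gfi1, from A430072P03Rik. Whether the counting used strand is not stated, so reads of these pairs cannot be fully told apart. Gm11505 stayed at or below 1.01 FPKM and A430072P03Rik at or below 2.31 in every library, and Plppr3 was at 7.18 FPKM in control 2 and 15.5 to 21.4 in the exposed libraries.

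**Figure D1:**
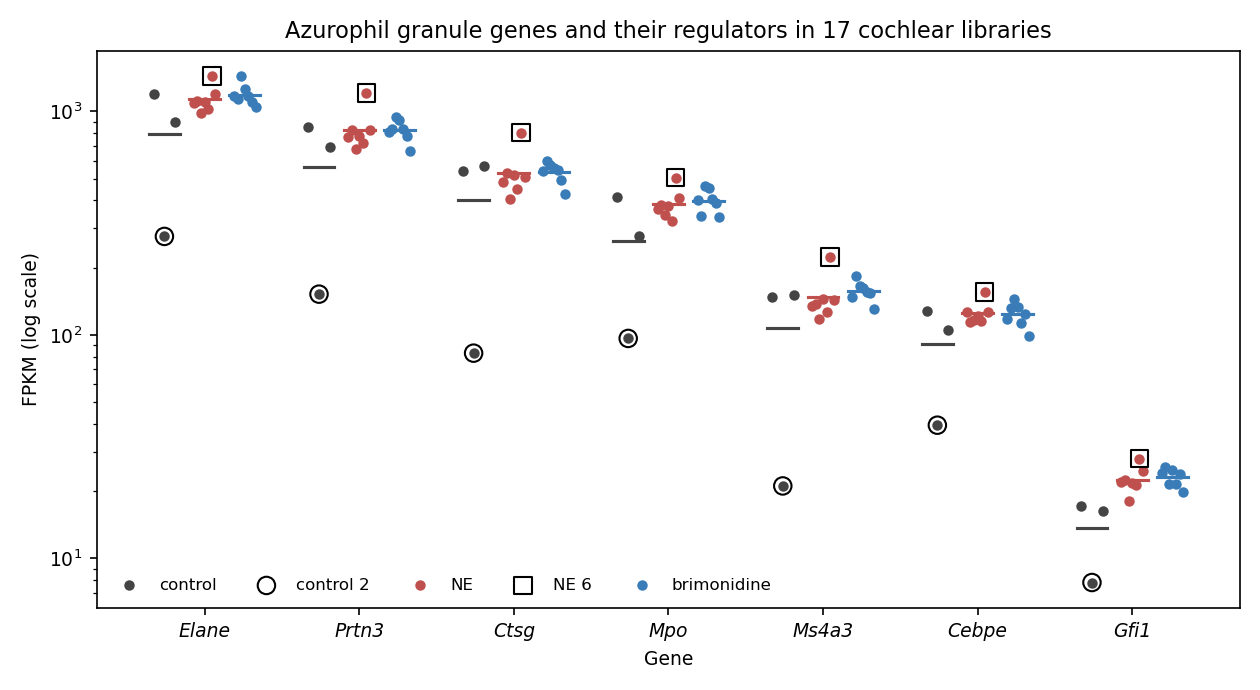
FPKM (log axis) of the 7 genes in each of the 17 libraries; each point is 1 library, short lines are group means, the circle marks control 2 and the square NE 6. Control 2 lies lowest for every gene, NE 6 lies highest in the NE group for every gene, and only for Gfi1 do the exposed points lie wholly above the control points.

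The NE and control groups were compared to ask how the exposure changed the cochlear transcriptome. Mean levels of all 7 members were 1.32 to 1.64 times those of the control group, and the fitted differences of 7 of 7 members were above 0, beside 43.9% of all genes, but the 3 control libraries spread so widely that the groups overlapped for 6 of the members. No member reached the study's thresholds, a Benjamini-Hochberg adjusted p under 0.05 and at least a 2-fold change, whereas 5.76% of the 15950 genes tested did (0.27% higher in NE). The count of members was 0 by limma on log2(FPKM + 1) and 0 by voom on recovered fragments. At an unadjusted p under 0.05 it was 2, Mpo and Gfi1, with 32.9% of all genes at that level (10.6% higher in NE). A different number of precursors and a different amount of mRNA per cell cannot be told apart in whole-tissue RNA.

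Myeloperoxidase mRNA illustrates the spread. Mpo stood at 413 FPKM in control 1, 96.4 in control 2 and 276 in control 3. In the NE group it ranged from 323 over a median of 378 to 505 FPKM. Controls 2 and 3 lay below all NE libraries, control 2 by far, and control 1 lay above 6 of the 7, so the groups overlapped. The difference was 0.78 on the log2(FPKM + 1) scale (SE 0.35, limma adjusted p = 0.152, exact two-sided permutation p = 0.133), and without control 2 it was 0.18 (adjusted p = 0.649).

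The 3 serine proteases showed the same picture. Elane was at 1203, 276 and 898 FPKM in controls 1, 2 and 3, and at 987 to 1438 in the NE group with a median of 1097. Prtn3 was at 850, 152 and 695 FPKM in those controls, and at 677 to 1207 in the NE group with a median of 773. Ctsg was at 544, 82.8 and 573 FPKM, and at 405 to 804 in the NE group with a median of 510. Control 2 lay far below the NE range for each protease. Controls 1 and 3 sat within it, except control 3 in Elane, which lay just under it. Mean differences were 0.76, 0.86 and 0.80 on the log2(FPKM + 1) scale for Elane, Prtn3 and Ctsg, with limma adjusted p of 0.189, 0.203 and 0.290. Without control 2 they were 0.12, 0.09 and -0.11, so Ctsg changed its sign.

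Ms4a3, the progenitor membrane protein, behaved like Ctsg. Its level was 148, 21.1 and 151 FPKM in controls 1, 2 and 3 and 118 to 223 in the NE group, with a median of 138. Controls 1 and 3 exceeded 6 of the 7 NE libraries. The log2(FPKM + 1) difference was 0.87 (SE 0.51, limma adjusted p = 0.252) and became -0.06 without control 2.

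Of the transcription factors, Cebpe had the smallest log2(FPKM + 1) difference of the 7 members with all controls, and Gfi1 the lowest limma adjusted p. Cebpe was at 128, 39.4 and 105 FPKM in controls 1, 2 and 3 and at 114 to 156 in the NE group, with a median of 121. Control 1 again lay inside the NE range, and the difference of 0.61 on the log2(FPKM + 1) scale (SE 0.29, limma adjusted p = 0.165) was 0.10 without control 2. Gfi1 was at 17.1, 7.79 and 16.2 FPKM in those controls. In the NE group Gfi1 ranged from 18.0 over 21.9 to 27.9 FPKM. All 7 NE libraries exceeded all 3 controls, with or without control 2. Gfi1 was thus the only member whose groups did not overlap, 1 of 7, beside 18.3% of all genes tested (3.24% higher in NE).

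The Gfi1 difference passed the adjusted threshold and not the 2-fold one. It was 0.74 on the log2(FPKM + 1) scale (SE 0.21, limma adjusted p = 0.0375, exact two-sided permutation p = 0.0167, where 0.00833 is the smallest p that 7 against 3 allows), a ratio of mean FPKM of 1.64. Genes with an adjusted p under 0.05 and no minimum fold made up 14.1% of those tested. Without control 2 the difference was 0.40 (adjusted p = 0.1015), and the exact permutation p was 0.0556, where 0.0278 is the smallest p possible. The adjusted p also lay above 0.05, between 0.0588 and 0.0673, when any NE library but NE 3 was left out, and was 0.0623 with no filter on low values, while the difference itself stayed between 0.69 and 0.75 without any 1 of those NE libraries. Leaving out control 1 instead, which leaves control 2 and control 3, made 2 members pass both thresholds, Mpo at 1.22 (adjusted p = 0.0266) and Elane at 1.18 (adjusted p = 0.0451) by limma, with 6.01% of genes called. Which of the controls is kept therefore decided whether members were called.

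The brimonidine and control groups were compared in the same way, and this comparison shares its 3 control libraries with the one above. Mpo ranged from 338 over 400 to 464 FPKM in the brimonidine group, Elane from 1045 over 1169 to 1440, and Prtn3 from 669 over 831 to 943, where the middle value is the median. Ctsg ranged from 429 over 548 to 603 FPKM, Ms4a3 from 131 over 156 to 183, and Cebpe from 99.2 over 124 to 145. All of these ranges took in at least 1 control. Gfi1 ranged from 19.8 over 23.8 to 25.7 FPKM, above all 3 controls. It was the only member without overlap, 1 of 7, beside 19.4% of genes tested (5.07% higher).

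The fitted differences of 7 of 7 members were above 0, beside 45.8% of all genes. Again 0 of the 7 members met both thresholds by limma and 0 by voom, against 5.73% of 15947 genes (0.169% higher). At an unadjusted p under 0.05 there were 3, Mpo, Elane and Gfi1, with 35.6% of all genes (13.6% higher). The largest mean difference was that of Ms4a3, 0.99 on the log2(FPKM + 1) scale (SE 0.49, limma adjusted p = 0.174), and it was 0.06 without control 2. The differences of Mpo, Elane, Prtn3, Ctsg and Cebpe were 0.83, 0.82, 0.87, 0.85 and 0.59, while leaving out control 2 gave 0.23, 0.19, 0.09, -0.07 and 0.08, so that Ctsg changed its sign. Gfi1 differed by 0.78 (SE 0.19, limma adjusted p = 0.0230), and with control 2 left out by 0.44 (adjusted p = 0.0164), so this difference kept its adjusted p and stayed under 2-fold. Genes with an adjusted p under 0.05 and no minimum fold made up 15.8% of those tested, and 9.48% without control 2. Without control 1, 3 members passed both thresholds by limma, Mpo at 1.27 (adjusted p = 0.0173), Elane at 1.25 (adjusted p = 0.0294) and Prtn3 at 1.33 (adjusted p = 0.0438), with 6.92% of genes called.

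**Figure D2:**
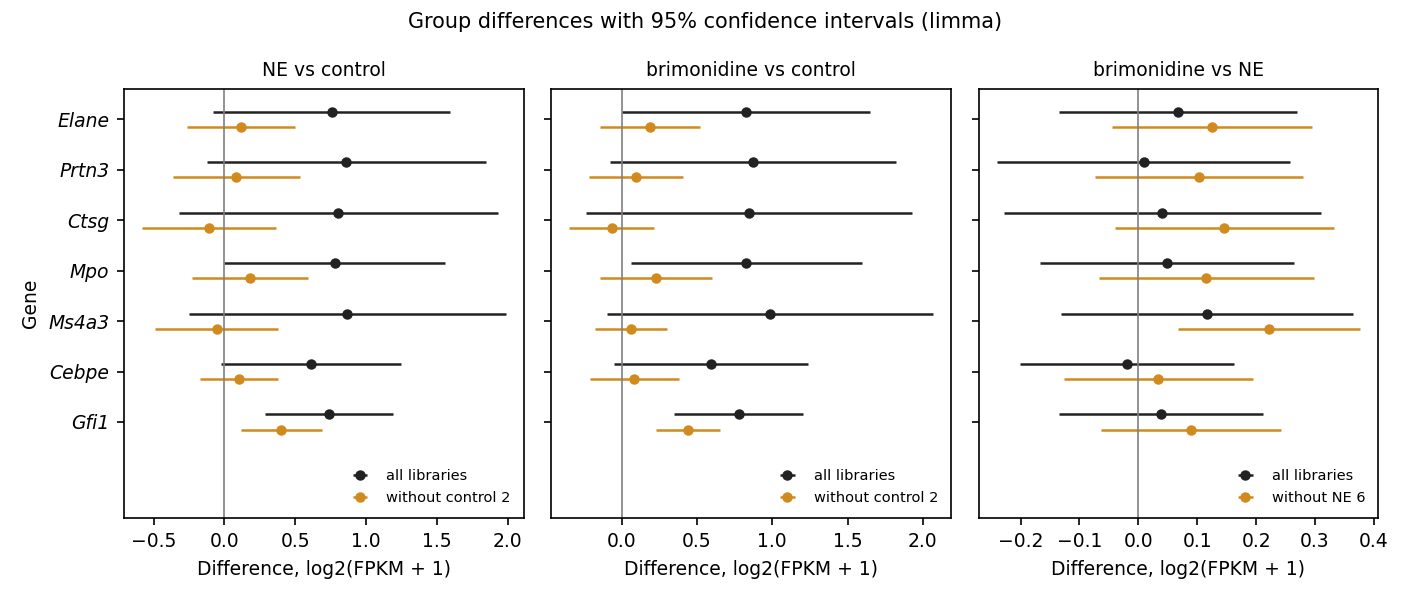
Difference between group means on the log2(FPKM + 1) scale with its 95% confidence interval from limma, for each gene and comparison; black uses all libraries, orange leaves out control 2 (left and middle panels) or NE 6 (right panel). Against control the orange points move toward 0 for all 7 genes and Gfi1 alone keeps an interval above 0; the right panel has its own narrower axis, on which the black intervals all include 0.

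The brimonidine and NE groups were compared to ask what the drug changed under the same exposure. The mean level of each member was nearly the same in both. Mpo was at 399 ± 49.4 FPKM (SD, n = 7) in the brimonidine group and 386 ± 59.4 (n = 7) in the NE group, Elane at 1189 ± 129 and 1138 ± 149, and Prtn3 at 825 ± 90.8 and 829 ± 175. Ctsg was at 535 ± 57.8 and 529 ± 129 FPKM, and Ms4a3 at 157 ± 16.0 and 147 ± 34.8. For the transcription factors the means were 23.1 ± 2.15 and 22.5 ± 3.06 FPKM for Gfi1 and 124 ± 15.0 and 125 ± 14.4 for Cebpe. The groups overlapped for all 7 members, and 0.14% of all genes did not overlap.

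Fitted differences were above 0 for 6 of 7 members, beside 57.7% of all genes, and no member differed by the test. By limma 0 of 7 members and 0% of 15707 genes met both thresholds, by voom 0 of each, and at an unadjusted p under 0.05 there were 0 members and 5.77% of genes. The 95% confidence intervals bound the differences to a narrow range. On the log2(FPKM + 1) scale that of Mpo ran from -0.17 to 0.26, that of Elane from -0.14 to 0.27, that of Prtn3 from -0.24 to 0.26 and that of Ctsg from -0.23 to 0.31. For Ms4a3 it ran from -0.13 to 0.37, for Gfi1 from -0.14 to 0.21 and for Cebpe from -0.20 to 0.16. A 2-fold change of any member in either direction lay outside these intervals, while smaller changes within them were not detectable with 7 libraries a group. The sign of the Prtn3 difference turned under median ratio scaling and that of Cebpe under quantile normalization.

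Within the NE group, NE 6 was the highest library for all 7 members. It held 1.38 times the mean of the other 6 NE libraries in Mpo and 1.32 times in Elane, at 505 and 1438 FPKM. Without NE 6 the brimonidine group exceeded the NE group by 0.22 on the log2(FPKM + 1) scale in Ms4a3 (95% interval 0.07 to 0.38, exact two-sided permutation p = 0.0128), and the limma adjusted p was 0.526. The next largest such difference was 0.15 for Ctsg (adjusted p = 0.758). In the same library the summed FPKM of late neutrophil genes was 1.59 times the mean of the other NE libraries. Most of that sum was S100a8 and S100a9, at 11763 and 30213 of 45068 FPKM. Specific granule genes stood at 1.36 times and 8 eosinophil genes at 0.632 times their means in those libraries.

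Control 2 was the lowest of the 17 libraries for all 7 members, and the members were not low by the same factor. The mean of controls 1 and 3 exceeded control 2 by 2.14-fold in Gfi1, 2.95-fold in Cebpe and 3.57-fold in Mpo. For Elane and Prtn3 it was 3.81- and 5.08-fold, and for Ctsg and Ms4a3 6.74- and 7.11-fold. The order runs from the transcription factors through Mpo, Elane and Prtn3 to Ctsg and Ms4a3. In the same library other lineages went both ways. Summed FPKM of controls 1 and 3 was 3.86 times that of control 2 for specific granule genes and 4.98 times for late neutrophil genes. For monocyte and macrophage genes it was 1.55 times, and for dividing cells 1.82 times. Erythroid genes were the other way, at 0.216 times, as were B-cell precursor genes at 0.406, eosinophil genes at 0.579, megakaryocyte genes at 0.629, cochlear genes at 0.483, bone genes at 0.431 and cerebellar genes at 0.402 times. Low neutrophil precursor mRNA in control 2 thus came with higher sums of these lists than in controls 1 and 3. The erythroid, B-cell precursor, cochlear, bone and cerebellar sums were also the highest of the 17 libraries. Eosinophil genes, at 1125 FPKM, lay below the NE median of 1193, and megakaryocyte genes, at 665 FPKM, below brimonidine 3 at 680. The part of any of these in the members' levels was not tested.

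**Figure D3:**
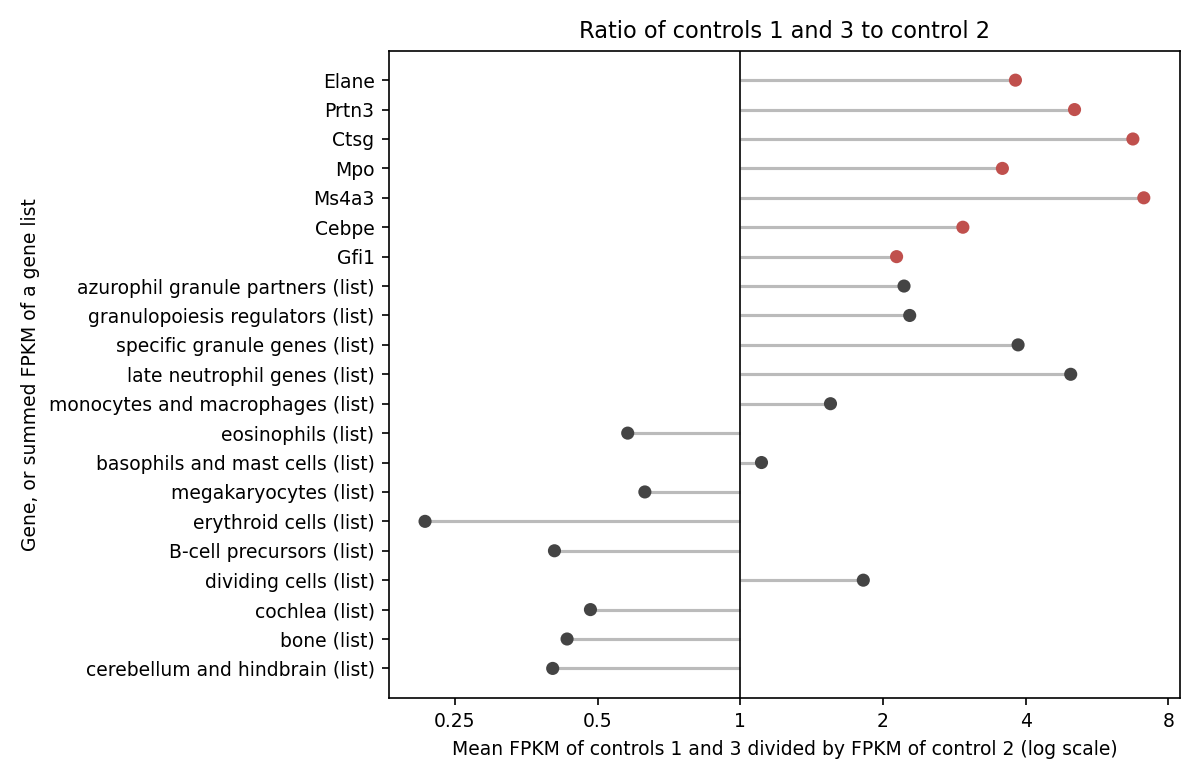
Mean FPKM of controls 1 and 3 divided by FPKM of control 2 (log axis), for the 7 genes (red) and for the summed FPKM of 14 gene lists (grey). The 7 genes lie between 2.14 and 7.11, specific granule and late neutrophil genes at 3.86 and 4.98, and erythroid, B-cell precursor, eosinophil, megakaryocyte, cochlear, bone and cerebellar genes lie under 1.

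Ratios between members within a library were compared next, and control 2 held the lowest or the highest of most of them. Mpo to Elane was the steadiest, between 0.299 and 0.360 over all 17 libraries, and control 2 lay inside that range at 0.349. Ctsg to Elane varied more, from 0.300 in control 2 to 0.637 in control 3, as did Ms4a3 to Elane, from 0.0764 to 0.168 in the same libraries. Prtn3 to Elane ran from 0.552 in control 2 to 0.839 in NE 6. Gfi1 to Elane was highest in control 2, at 0.0282, and lowest in control 1, at 0.0142. Cebpe to Elane was likewise highest in control 2, at 0.143.

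Ctsg relative to Mpo separated a few libraries from the rest. It was 2.08 in control 3, 1.77 in brimonidine 2 and 1.59 in NE 6, around a median of 1.32 over 17 libraries, and 0.859 in control 2. Control 3, brimonidine 2 and NE 6 come from 3 different groups. They held 3 of the 4 highest sums of late neutrophil genes, at 33814, 42283 and 45068 FPKM, the other being brimonidine 3 with 33884 FPKM, whose Ctsg to Mpo ratio was not high. Group means of the ratio were 1.42 ± 0.615 (SD, n = 3) in the control, 1.36 ± 0.132 (n = 7) in the NE and 1.36 ± 0.191 (n = 7) in the brimonidine group, closer together than the spread within any of them.

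**Figure D4:**
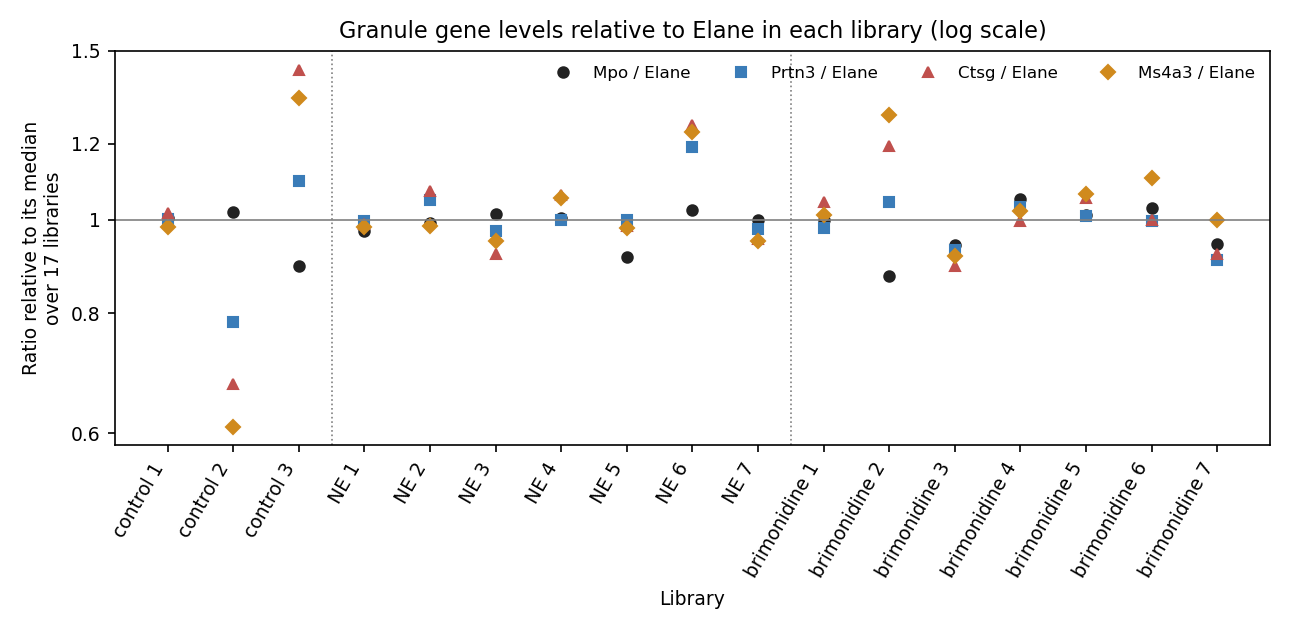
FPKM of Mpo, Prtn3, Ctsg and Ms4a3 divided by FPKM of Elane in the same library and scaled to the median over 17 libraries (log axis); dotted lines part the groups. Mpo stays close to 1, while Ctsg and Ms4a3 are low in control 2 and high in control 3, NE 6 and brimonidine 2.

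Early genes were also set against later stages. The summed FPKM of Mpo, Elane, Prtn3 and Ctsg was 12.0% to 16.5% of that of 12 specific granule genes, such as Ltf, Camp and Ngp, over the 17 libraries. Its mean was 14.6% ± 1.52 (SD, n = 3) in the control, 14.6% ± 1.42 (n = 7) in the NE and 14.8% ± 1.29 (n = 7) in the brimonidine group. Against 12 late neutrophil genes, whose sum was mostly S100a8 and S100a9, the share ran from 6.89% in brimonidine 2 to 11.6% in brimonidine 4. Group means were 9.07% ± 1.64, 9.43% ± 0.936 and 9.87% ± 1.68 in the same order. Control 2 lay within the range of the other libraries in both shares, at 13.2% and 9.63%. Precursor and later neutrophil mRNA were therefore low together in that library.

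Other genes of the azurophil granule were listed as partners of the members. Of these 12, 11 were tested, since Bpi was near 0, and between NE and control 10 differences were above 0, beside 43.9% of all genes, and 0 met both thresholds. An unadjusted p under 0.05 was reached by 3 of the 11, each higher in NE, beside 32.9% of all genes in either direction and 10.6% higher in NE. The median was 0.54 on the log2(FPKM + 1) scale, where it was -0.04 over all genes. Among the partners were Ctsc, which encodes the protease that activates the granule serine proteases (0.63, adjusted p = 0.0930), and Prss57, a further granule serine protease (0.78, adjusted p = 0.149), by limma. Without control 2, 9 of 11 were above 0, beside 47.1% of all genes, with a median of 0.06, where it was -0.01 over all genes. Ctsc then was at 0.20 (adjusted p = 0.168) and Prss57 at 0.13 (adjusted p = 0.60). Between brimonidine and NE, 6 of 11 were above 0, and Slpi, which encodes an inhibitor of elastase and cathepsin G, had an unadjusted p under 0.05 with a difference of -0.64 (limma adjusted p = 0.633).

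Regulators are the genes that govern granulocyte formation. Of 15, 13 were above 0 between NE and control, beside 43.9% of all genes, with a median of 0.28 on the log2(FPKM + 1) scale, and 0 met both thresholds. Spi1, which encodes PU.1, differed by 0.66 (adjusted p = 0.167) and Cebpa by 0.21 (adjusted p = 0.330) by limma. Kit, the stem cell factor receptor of early progenitors and mast cells, was the only regulator with an adjusted p under 0.05 by limma, beside 14.1% of all genes, at -0.61 (adjusted p = 0.00781), lower in NE. It stood at 9.05, 13.6 and 10.5 FPKM in controls 1, 2 and 3 and at 5.76 to 7.72 in the NE group. Kit was thus highest in control 2, the library with the highest cerebellar sum (731 FPKM), and the part of that signal in the Kit difference was not tested. Without control 2, 2 regulators had an adjusted p under 0.05 by limma, beside 6.74% of all genes. Kit was lower in NE, at -0.46 (adjusted p = 0.0301), and Klf4, which encodes a transcription factor of monocytes, was higher, at 0.30 (adjusted p = 0.0388). In that fit 9 of 15 regulators were above 0 and their median was 0.09, with Spi1 at 0.11 and Cebpa at -0.03. Between brimonidine and NE, Cebpa had the smallest p of this list, with a difference of 0.26 (limma adjusted p = 0.300).

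Of 10 genes of dividing cells, 10 were above 0 between NE and control, beside 43.9% of all genes, and 3 had an adjusted p under 0.05 by limma, beside 14.1% of all genes, Cenpf at 0.64 (adjusted p = 0.00541), Mki67 at 0.53 (adjusted p = 0.0493) and Top2a at 0.59 (adjusted p = 0.0497). None of the 10 reached a 2-fold change. Without control 2, 10 of 10 were still above 0, with a median of 0.23 in place of 0.53, and only Cenpf, at 0.53, had an adjusted p under 0.05 (0.0261). Lists of other lineages were also above 0 in that fit. Erythroid genes were above 0 in 10 of 10 with a median of 0.52, against 2 of 10 and -0.10 with all controls, and eosinophil genes in 8 of 8 with a median of 0.79, against 7 of 8 and 0.49. With all controls, specific granule genes were above 0 in 12 of 12 with a median of 0.80, and late neutrophil genes in 12 of 12 with a median of 0.67, with 0 called in either list. Without control 2 they were above 0 in 7 of 12 with a median of 0.12 and in 8 of 12 with a median of 0.03. Between brimonidine and NE the medians of the dividing-cell, specific granule and late neutrophil lists were 0.03, 0.01 and 0.03. Olfm4, a specific granule gene found in a subset of neutrophils, was the only gene with an adjusted p under 0.05 there (0.00637% of genes tested), at 0.52 (limma adjusted p = 0.0430).

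The members also resembled one another in how they varied. Over the 17 libraries the 21 pairs had Pearson correlations of log2(FPKM + 1) between 0.894 and 0.995, and the points share library, depth and control 2. Over the 14 exposed libraries the range was 0.576 to 0.957, and with NE 6 left out as well 0.390 to 0.916, with a median of 0.729. Among the 15000 genes whose mean reached 1 FPKM, Prss57 was most like the mean of the members over 17 libraries, at r = 0.993. Nkg7, a granule membrane protein of leukocytes, and Spi1 were among the next. Over the 14 exposed libraries the closest was Arpc4, a subunit of the actin-branching Arp2/3 complex, at r = 0.944, and Prss57 and Nkg7 remained among the first 10 in both.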

How the data were processed

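RNA from 17 mouse cochleae was sequenced as strand-specific mRNA libraries. The submitters' processing notes name Trimmomatic, HISAT2, Cufflinks and HTSeq and the build mm10, without versions, and the authors deposited FPKM values, fragments counted on a gene divided by its merged exon length and by the library total. Multiplied by the exon length in GENCODE M21, 91.1% of the values above 0 were whole multiples (tolerance 0.02) of 1 fragment. With lengths solved for the rest, fragments were recovered for 35028 of 35029 genes. The depth per library was 14457733 to 18288854 fragments.

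A gene entered a comparison when 3 or more of its libraries reached 1 FPKM, and was tested by limma 3.58.1 (R 4.3.3) on log2(FPKM + 1), each model holding just its own pair of groups. This scale understates changes of low genes. The study's thresholds (adjusted p under 0.05, 2-fold) were kept, and its DESeq2 test was not run, as the deposited unit is FPKM. The recovered fragments were fitted with voom instead, as an alternative. Simulated data in which 200 genes were altered served as a check of the steps. For NE against control it called 184 of the 194 that were tested with 4 false calls, and for brimonidine against NE 181 of 199 with 1 false call, among 15629 and 15413 genes. The simulated spread was the same in every group, and altered genes had median fitted changes of 1.70 and 1.71 in log2. Members varied by 37.5% (Gfi1) to 69.5% (Ms4a3) of their mean in the real controls, so these counts do not give the sensitivity for members. For single members, group means were compared by exact permutation (Python 3.11.15, scipy 1.17.1). Groups came from the labels. Replicates were separate mice, 1 library each, and p-values measure the spread between these mice and their libraries. Members, gene lists and motifs were chosen with earlier results of these data known. Named genes were the members, up to 4 genes of a list by smallest p or as its defining markers, and the 10 most alike. Genes named beyond that rule, among them Spi1, Klf4, Bpi and Olfm4, were chosen after their values were seen. Alternatives were a pseudocount of 0.1, no filter, 2 scalings, all groups in 1 model, array weights, voom on recovered fragments, a replicate block, other thresholds and each library left out. The recovered-fragment fit called 1251, 0 and 1285 genes in NE against control, brimonidine against NE and brimonidine against control. Of the listed partner genes, 1 is counted and not reported by name here.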

Additional observations from a re-analysis of the deposited data

Results flagged for a closer look

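NE 6 lay far above the other 6 NE libraries in 4 members, by a gap to the nearest library that took up more than the Dixon limit of the range of the group. Its levels were 1207 FPKM in Prtn3, 804 FPKM in Ctsg, 223 FPKM in Ms4a3 and 156 FPKM in Cebpe. The next NE libraries stood at 826 FPKM in Prtn3, 532 FPKM in Ctsg, 145 FPKM in Ms4a3 and 127 FPKM in Cebpe. Groups of 7 libraries were tested 14 times, for 7 genes in each exposed group, and 4 exceeded the limit, all in NE 6. Chance alone gives about 1 in 20, and the 7 genes are not independent of one another. The check was run on groups of 7 only, so the control group was not checked. Control 2 was the lowest of the 17 libraries for all 7 members.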

How the results depend on the processing

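The direction of several member differences against control rested on control 2. Over the libraries left out in turn, the NE against control difference on the log2(FPKM + 1) scale ran from -0.11 to 1.28 in Ctsg and from -0.055 to 1.34 in Ms4a3, and the brimonidine against control difference from -0.067 to 1.32 in Ctsg, each lowest without control 2 and highest without control 3. Array weights gave -0.18, -0.10 and -0.070 for the same 3. Between brimonidine and NE, where all differences were small, leaving out libraries gave -0.036 to 0.10 in Prtn3, -0.018 to 0.15 in Ctsg, -0.011 to 0.090 in Gfi1 and -0.060 to 0.034 in Cebpe, and the other 3 members kept their sign. Prtn3 turned to -0.0076 under median ratio scaling and Cebpe to 0.027 under quantile normalization. Members called ranged from 0 to 2 between NE and control and from 0 to 3 between brimonidine and control over the libraries left out, and were 2 and 3 at an unadjusted p under 0.05, and 1 and 1 at an adjusted p under 0.05 with no minimum fold. They were 0 in 17 of 20 alternatives in each of these comparisons and in 24 of 24 between brimonidine and NE. Over the settings that left out no library, the limma adjusted p of Mpo ran from 0.036 to 0.562 between NE and control. Between brimonidine and control it ran from 0.012 to 0.447 for Mpo and from 0.037 to 0.527 for Elane. None of these differences reached 2-fold. Genes called ranged from 368 to 934 and from 468 to 1080 over the libraries left out, lowest without control 2, against 918 and 913. With no minimum fold they were 2247 and 2518, and at an unadjusted p 5252 and 5672. Between brimonidine and NE they were 906 at an unadjusted p, 1 with no minimum fold and 1 with array weights. The cause of these changes was not tested beyond the construction of each alternative.

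The replicate numbers did not pair the samples: none of the same-numbered pairs had deviations correlated above 0.1, with a highest value of 0.083. The replicate block gave 0 genes called between NE and control, 0 between brimonidine and NE and 236 between brimonidine and control, over the shared numbers only, and it called 0 members in each. Under it the Gfi1 difference was 0.63 between NE and control (limma adjusted p = 0.433) and 0.82 between brimonidine and control (limma adjusted p = 0.278). Quantile normalization moved the median difference of all genes between NE and control from -0.04 to 0.06, and all 7 members stayed above 0 there. The counting error of the members is small, since the fewest fragments on any was 377, for Gfi1 in control 2.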
